A study of Mus musculus with 9 samples.

Results

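Ribosomal protein copies are genes of the mouse genome whose symbol is that of a ribosomal protein followed by -ps and, in most, a number. The deposited table listed 276 of them among 51912 genes, and every symbol of that form was taken. By symbol alone, 171 begin with Rpl, the prefix of large-subunit proteins, and 105 with Rps, that of small-subunit proteins. The copies were chosen by their symbols, and the copies described by group were chosen from the measured values, as those listed at 0 in all livers of 1 treatment group and above 0 in the other. The same contrast is therefore a description here, and the calls that a fit over all genes makes on these copies are given as counts with nothing read from them. Levels were measured by RNA sequencing of ribo-depleted, stranded libraries from livers of fasted mice, all of genotype *Apoe*-/-*Ndst1* f/f *Alb-Cre*+ on the C57Bl/6 background. The apoC-III ASO group (n = 5) had received an antisense oligonucleotide (ASO) that lowers mouse *Apoc3* mRNA, and the control ASO group (n = 4) a control ASO. Both were injected intraperitoneally at 50 mg/kg/week for 8 weeks. Apart from the ASO, the 2 groups carried the same alleles, so that no liver had intact *Apoe* and, through *Alb-Cre*, which acts in hepatocytes, none had intact hepatocyte *Ndst1*, which encodes a heparan sulfate sulfotransferase. The age of the mice and the diet of those sequenced are not given in the sources used here. Each liver came from a different mouse, and the labels tie none to a litter or a day.

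Ribosomal proteins assemble with ribosomal RNA into the large and the small subunit of the cytosolic ribosome, and their mRNAs are abundant in most cells. Their spliced mRNAs have often been reverse transcribed and inserted elsewhere in the genome, which leaves intron-less copies called processed pseudogenes. Many copies have lost the promoter and the reading frame of the parent gene but keep most of its bases. Short reads from the shared stretches fit parent and copies equally well, and a quantifier such as kallisto then divides them among the genes by an iterative estimate. Each value of a copy below is such an estimate, in TPM (transcripts per 1000000), which divides reads by length and scales every liver to the same total of 1000000.

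The sequences of the copies on which the group comparison turned show how little separates them from their parents. The 180 bases of the *Rps10* coding sequence from position 316 to 495 are shown because they hold all 5 mismatches of *Rps10-ps2*, the copy listed at 0 in every control liver. *Rps10* encodes a protein of the small subunit and lies at chr17:27630418-27636669 (minus strand). *Rps10-ps1* lies at chr3:95622278-95622772 (plus), *Rps10-ps2* at chr16:20822145-20822640 (minus), *Rps10-ps3* at chr4:3978251-3978750 (minus) and *Rps10-ps4* at chr5:147100562-147101053 (minus). Coordinates and sequences here are those of GRCm38 and GENCODE M21, and capitals mark bases of a copy that differ from, or are inserted into, the coding sequence of its parent.
Rps10: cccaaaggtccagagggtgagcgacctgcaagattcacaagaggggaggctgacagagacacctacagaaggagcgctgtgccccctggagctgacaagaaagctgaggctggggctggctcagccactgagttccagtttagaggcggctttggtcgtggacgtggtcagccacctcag
Rps10-ps1: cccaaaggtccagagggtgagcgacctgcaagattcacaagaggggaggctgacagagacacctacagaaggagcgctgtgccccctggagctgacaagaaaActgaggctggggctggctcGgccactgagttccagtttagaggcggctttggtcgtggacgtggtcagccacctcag
Rps10-ps2: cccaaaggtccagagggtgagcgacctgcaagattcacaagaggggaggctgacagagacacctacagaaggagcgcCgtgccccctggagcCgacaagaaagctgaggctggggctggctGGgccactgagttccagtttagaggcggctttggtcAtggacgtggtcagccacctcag
Rps10-ps3: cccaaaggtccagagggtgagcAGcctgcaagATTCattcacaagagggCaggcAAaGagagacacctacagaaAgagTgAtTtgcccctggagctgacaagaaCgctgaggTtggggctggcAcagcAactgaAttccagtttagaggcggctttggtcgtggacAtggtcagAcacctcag
Rps10-ps4: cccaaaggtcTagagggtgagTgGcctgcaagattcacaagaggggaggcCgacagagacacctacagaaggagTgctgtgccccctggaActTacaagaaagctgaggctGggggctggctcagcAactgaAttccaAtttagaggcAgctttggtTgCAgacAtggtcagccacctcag

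Over the whole aligned stretch, *Rps10-ps1* had 6 mismatches and *Rps10-ps2* had 5 in 495 bases. The other copies stood farther off, with 52 mismatches in 492 bases for *Rps10-ps3* and 48 in 487 for *Rps10-ps4*. Of the 466 overlapping 31-base words of *Rps10-ps2*, 97 (20.8%) occurred in no other annotated gene. *Rps10-ps1* had 31.4% such unique words, *Rps10-ps3* 97.7% and *Rps10-ps4* 97.8%. A word of 31 bases is the length at which kallisto matches reads by default, and the length used for the deposited values is not stated.

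The first 120 bases of the coding sequence of *Rpl3*, which encodes a core protein of the large subunit, are shown with its copies because *Rpl3-ps1* (chrX:13202571-13203780, plus strand) was the copy called lower under the apoC-III ASO. *Rpl3-ps2* (chrX:74170653-74171866, plus) is the other copy.
Rpl3: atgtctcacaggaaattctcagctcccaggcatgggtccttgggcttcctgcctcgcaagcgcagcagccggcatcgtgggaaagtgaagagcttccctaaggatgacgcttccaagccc
Rpl3-ps1: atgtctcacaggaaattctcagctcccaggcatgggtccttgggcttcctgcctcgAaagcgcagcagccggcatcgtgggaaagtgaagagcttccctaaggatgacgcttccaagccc
Rpl3-ps2: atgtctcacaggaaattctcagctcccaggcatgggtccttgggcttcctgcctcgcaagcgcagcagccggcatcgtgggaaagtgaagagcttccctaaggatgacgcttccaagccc

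*Rpl3-ps1* differed from the *Rpl3* coding sequence at 2 of 1209 bases, and 94.7% of its words were also in *Rpl3*. *Rpl3-ps2* had 10 mismatches, none of them in the stretch shown, and shared 73.0% of its words with *Rpl3*.

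The most abundant copy, *Rpl19-ps11* (chr8:19492936-19493526, plus strand), is shown with bases 131 to 250 of the coding sequence of *Rpl19*, a large-subunit protein, and with *Rpl19-ps1* (chr1:85012114-85012704, plus). The stretch holds the only mismatch of *Rpl19-ps11* in 588 bases.
Rpl19: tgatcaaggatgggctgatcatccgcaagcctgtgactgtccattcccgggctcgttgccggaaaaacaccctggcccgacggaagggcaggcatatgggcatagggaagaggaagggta
Rpl19-ps11: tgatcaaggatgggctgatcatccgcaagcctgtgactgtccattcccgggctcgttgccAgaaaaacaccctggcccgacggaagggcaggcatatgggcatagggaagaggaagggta
Rpl19-ps1: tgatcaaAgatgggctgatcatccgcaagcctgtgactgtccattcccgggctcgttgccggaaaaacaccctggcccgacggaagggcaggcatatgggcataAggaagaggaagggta

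*Rpl36a-ps3* (chr6:136488807-136489127, plus strand) is shown with bases 65 to 184 of *Rpl36al*, because its symbol and its sequence name different parents. None of its words occurred in *Rpl36a*, whereas 89.3% occurred in *Rpl36al*, a gene for a nearly identical large-subunit protein, from which it differed at 1 of 318 bases.
Rpl36al: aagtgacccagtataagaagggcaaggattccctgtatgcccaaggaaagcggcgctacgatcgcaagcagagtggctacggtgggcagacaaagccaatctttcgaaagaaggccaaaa
Rpl36a-ps3: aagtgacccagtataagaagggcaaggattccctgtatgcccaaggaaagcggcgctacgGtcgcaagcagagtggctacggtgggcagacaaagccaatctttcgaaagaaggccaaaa

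The livers differed in ways that touch every TPM value. The target of the ASO, *Apoc3*, was 86.5% lower in apoC-III ASO livers, and no liver went against its label. By exact permutation of the livers, the two-sided p was 0.0159. This is a doubled one-sided p, the lowest that such doubling can give here. By limma-trend the adjusted p of *Apoc3* was 0.104 in TPM as deposited, which misses 0.05, and 0.000973 after the median-of-ratios scaling described next. The 7SL RNA genes *Rn7s1* and *Rn7s2* took 64.0% to 83.6% of the TPM of a liver. Median-of-ratios factors, the median ratio of a gene's TPM to its geometric mean over livers, lay between 0.642 and 1.75 in 8 livers and at 0.216 in control ASO replicate 4, which stands apart. Summed TPM of the 8 hepatocyte markers lay between 1234.1 and 3988 in the apoC-III ASO group and between 478 and 3280 in the control group, and each marker list of another liver cell type summed to at most 9.28 TPM in any liver, except erythroid genes (2.81 to 40.6). In bulk RNA, fewer cells of a type and less RNA per cell cannot be told apart.

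Fewer than 1 in 3 of the copies were above 0 in any 1 liver. In apoC-III ASO replicates 1 to 5, 39, 50, 71, 60 and 37 copies were above 0, and in control ASO replicates 1 to 4, 65, 44, 47 and 44. The medians were 50 and 45.5, and the groups overlapped. Much of the difference between livers lay in values close to 0. Of the 457 values above 0, 67 were under 1e-06 TPM, 26 of them in apoC-III ASO replicate 3, 17 in replicate 4 and 23 in control ASO replicate 1. Counted from 0.01 TPM upwards, the livers held 39, 45, 45, 43 and 37 copies under the apoC-III ASO and 42, 40, 47 and 44 under the control ASO.

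**Figure D1:**
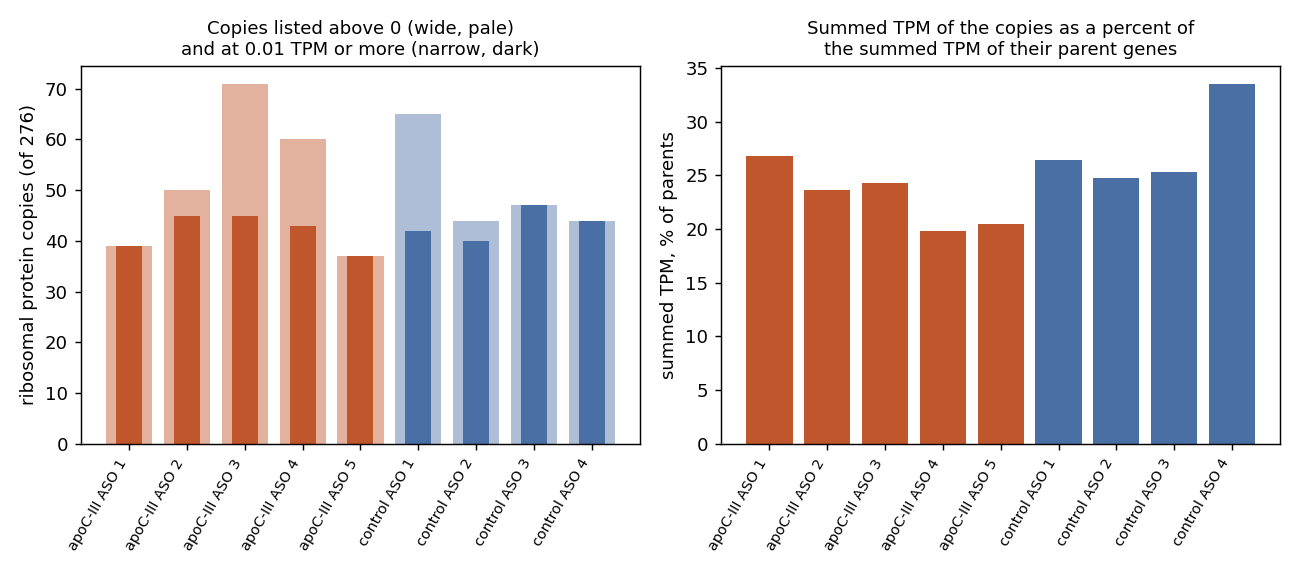
Copies per liver, in orange for the 5 apoC-III ASO livers and in blue for the 4 control ASO livers. Left, the number of the 276 copies above 0 (wide, pale bars) and at 0.01 TPM or more (narrow, dark bars), where the high bars of apoC-III ASO replicates 3 and 4 and control ASO replicate 1 shrink to between 42 and 45. Right, the summed TPM of all copies as a percent of the summed TPM of their parent genes, highest at 33.5% in control ASO replicate 4.

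Over all 9 livers, 125 copies (45.3%) were above 0 at least once and 151 were at 0 throughout. Only 5 were above 0 in every liver, 85 in 2 to 8 livers and 35 in 1 liver alone. For comparison, 27.5% of the 8288 other processed pseudogenes and 50.2% of all genes were above 0 in any liver. Livers agreed poorly on which copies were present. Of the copies at 0.01 TPM or more in either liver of a pair, a median of 36.7% (25% to 45.5%, 10 pairs) were so in both within the apoC-III ASO group. The share was 35.2% (27.3% to 49.1%, 6 pairs) within the control ASO group and 39.7% (20.8% to 50%, 20 pairs) between groups, so that neither median within a group was above that between groups. The parents were above 0 in every liver, all 60 that the table lists, with means from 0.462 to 18.2 TPM (median 3.62).

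The copies found above 0 were mostly those that share most of their sequence with other genes. Among 37 copies with no unique 31-base word, 25 (67.6%) were above 0 in a liver. The share was 73.6% (53 of 72) for copies with up to 25% unique words, 44.6% (25 of 56) from 25% to 50%, 24.5% (13 of 53) from 50% to 75%, and 14.0% (8 of 57) above that. Of the 13 copies identical to their parent over their whole length, 12 were above 0. These shares count any value above 0, also in the 10 copies whose only such values were under 1e-06 TPM, and were not computed at a higher threshold. The median identity to the parent was 93.0% in copies at 0 throughout, 98.5% in those above 0 in 1 to 4 livers, 99.2% in 5 to 8 livers and 99.7% in all 9. Across the 275 copies with a GENCODE transcript, the number of livers above 0 ran against the percent of unique words (Spearman's rho -0.49) and little with the parent's mean TPM (rho -0.06, 274 copies). These are descriptions across copies, which share families and livers and are not independent.

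**Figure D2:**
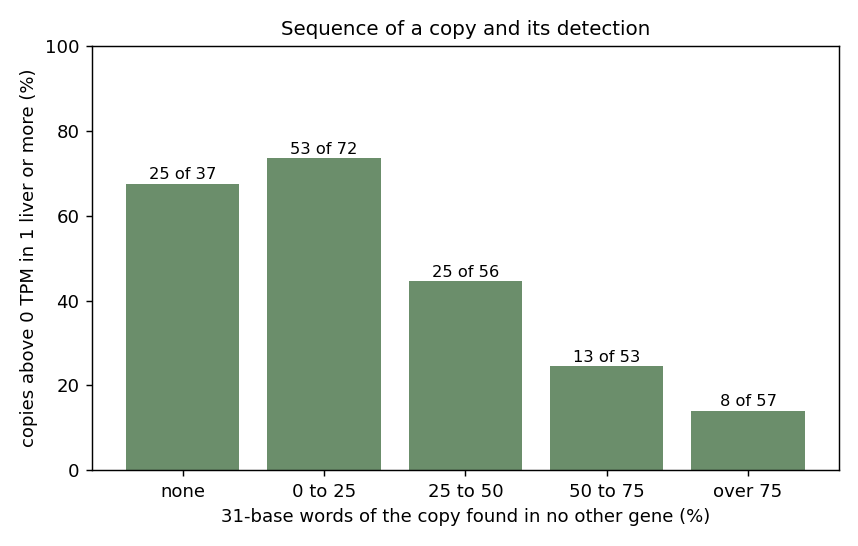
Share of copies above 0 TPM in 1 liver or more (vertical axis, percent), by the percent of their 31-base words that occur in no other annotated gene (horizontal axis); the counts stand above the bars. The share was 67.6% and 73.6% in the 2 groups with the least sequence of their own and 14.0% in the group with the most.

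Place in the genome also went with detection. Of 23 copies in an intron of another gene on the same strand, 19 (82.6%) were above 0, against 22 of 54 (40.7%) in an intron on the opposite strand and 76 of 189 (40.2%) with no other gene over them. Of 9 copies that overlap an exon of another gene, 7 were above 0. The median percent of unique words was 26.0 in same-strand introns, 37.3 in opposite-strand introns and 39.5 where no other gene lies, and how far this accounts for the difference was not tested. GENCODE M21 calls 263 of the copies processed pseudogenes, 6 transcribed processed pseudogenes and 6 protein-coding genes, and does not hold the last. Of the 6 transcribed ones, 5 were above 0.

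The copies together carried far less TPM than their parents. Their summed TPM was 93.2, 55.1, 57.2, 72.8 and 32.4 in apoC-III ASO replicates 1 to 5, and 102, 98.7, 61.1 and 34.4 in control ASO replicates 1 to 4. Against the parents this was 26.8%, 23.6%, 24.2%, 19.8% and 20.4%, and 26.5%, 24.7%, 25.3% and 33.5%. The groups overlapped, and control ASO replicate 4, the liver with the lowest parent sum (102 TPM, against up to 400 TPM in replicate 2), had the highest share. The copies of 19 parent symbols were at 0 throughout, among them the 4 copies of *Rpl26*. *Rpl48*, for which the table lists no gene, is counted in the 19. The largest families were those of *Rps12* (23 copies, 4 above 0) and *Rpl31* (22 copies, 8 above 0), both encoding subunit proteins.

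Of the 65 copies with a mean of at least 0.1 TPM, 6 had a higher mean than their parent. *Rpl19-ps11* was at 21.4, 13.8, 13.6, 17.0 and 11.6 TPM in the apoC-III ASO livers and at 26.7, 25.4, 15.0 and 3.65 TPM in the control livers. Its parent *Rpl19* was at 5.11, 3.31, 3.97, 5.69 and 1.82 TPM, and at 7.94, 4.95, 3.41 and 0.802 TPM. The copy was thus 2.99 to 6.40 times as high as the parent in each liver, and the groups overlapped. After division by the median-of-ratios factors it lay between 10.03 and 18.2 in all 9 livers. It alone made up 10.6% to 36.0% of the summed TPM of the copies. An annotated miRNA gene, *Gm27288*, lies over *Rpl19-ps11* on the same strand. Its near neighbor in sequence, *Rpl19-ps1*, was at 0, 0, 1.19, 1.06 and 0.0613 TPM, and at 0, 0.234, 1.38 and 2.65 TPM, highest in control ASO replicate 4.

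**Figure D3:**
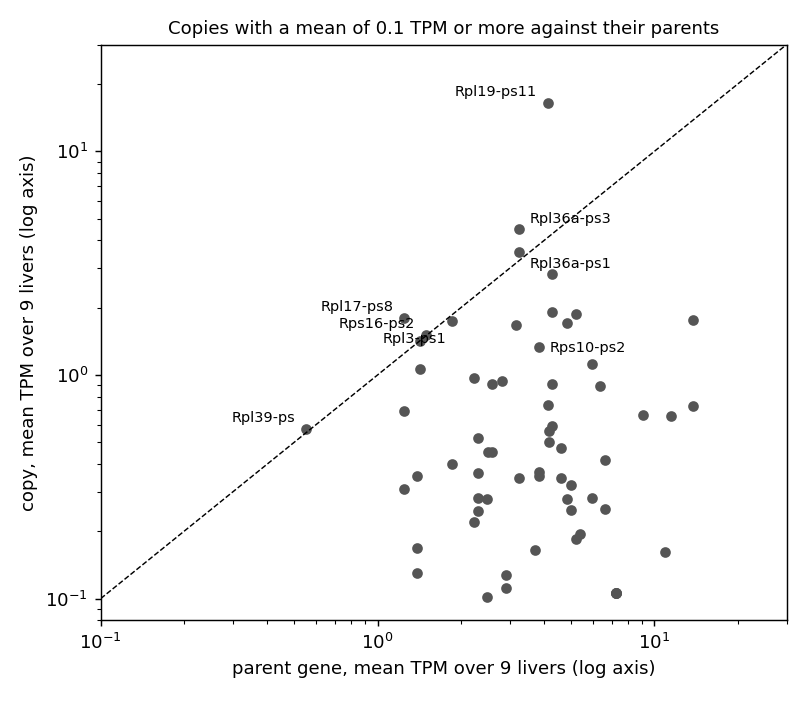
Mean TPM over 9 livers of each of the 65 copies with a mean of at least 0.1 TPM (vertical log axis) against the mean TPM of its parent gene (horizontal log axis). The dashed line marks equal values; 6 copies lie above it, *Rpl19-ps11* (16.5 against 4.11 TPM) farthest from it.

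The next most abundant were copies of *Rpl36a*, whose protein belongs to the large subunit. *Rpl36a-ps3* was at 7.80, 5.22, 7.42, 0.717 and 0.369 TPM under the apoC-III ASO and at 8.68, 9.71, 0 and 0.744 TPM under the control ASO. *Rpl36a-ps1*, annotated as protein coding, was at 4.71, 0, 0.618, 7.30 and 0.800 TPM, and at 7.56, 6.0, 3.08 and 1.86 TPM. *Rpl36a-ps3* was under 1 TPM in 2 livers of each group and *Rpl36a-ps1* in 3 apoC-III ASO livers, while *Rpl36a* itself lay between 1.31 and 5.41 TPM under the apoC-III ASO and between 0.731 and 4.13 TPM under the control ASO. *Rpl36al*, the gene whose sequence *Rpl36a-ps3* carries, had a mean of 12.1 TPM in both groups, so by sequence that copy stood below its closest gene. *Rpl17-ps8*, in an intron of *Heph* on the same strand, was at 2.77, 2.20, 1.67, 1.12e-24 and 0.416 TPM and at 2.92, 3.01, 1.85 and 1.35 TPM. *Rpl39-ps*, *Rps16-ps2*, *Rpl36a-ps1* and *Rpl17-ps8* had means close to or somewhat above those of their parents. *Rpl10-ps3*, also annotated as protein coding, was at 7.14, 3.43, 0, 3.59 and 1.91 TPM, and at 5.48, 0, 3.93 and 0 TPM, and so went from 0 to several TPM in both groups.

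Most copies listed at 0 in only 1 group rested on a value in 1 liver of the other. There were 25 copies at 0 in all 4 control livers and above 0 under the apoC-III ASO (20% of the 125 copies ever above 0, against 7.83% of the 26067 genes ever above 0). Of these, 18 were above 0 in 1 liver, 3 had no value of 1e-06 TPM or more, and 5 reached 1 TPM. In the other direction there were 18 copies at 0 in all 5 apoC-III ASO livers (14.4%, against 6.02% of genes), 17 of them above 0 in 1 control liver, 4 with no value of 1e-06 TPM or more and 2 that reached 1 TPM. Control ASO replicate 4 alone gave 9 of those 17, and without that liver the counts were 32 and 9. Because the copies were selected on this contrast, nothing is read from the comparison with the background. The 2 that reached 1 TPM only under the control ASO were *Rpl29-ps5* (3.11 TPM in replicate 2) and *Rps18-ps3* (1.46 TPM in replicate 4).

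With at least 2 livers above 0 asked for, 7 copies remained at 0 in the controls alone and 1 at 0 in the apoC-III ASO livers alone. *Rpl30-ps11* was at 0, 0, 0.790, 1.42 and 0.303 TPM under the apoC-III ASO, and 38.7% of its words were unique. *Rpl32-ps*, with 74.2% unique words, was at 0, 0.138, 0, 0.0399 and 0.0410 TPM. *Rps27a-ps1*, with 79.7%, was at 0.120 and 0.179 TPM in replicates 1 and 3, and its parent encodes ubiquitin fused to a small-subunit protein. These 3 levels were low, and all 3 copies were at 0 in some apoC-III ASO livers. *Rpl34-ps1* and *Rpl15-ps3*, which have no unique word, reached 1.47 and 1.0 TPM in a liver each, in apoC-III ASO replicates 4 and 3. Their other values above 0 were 0.0138 and 6.68e-159 TPM. *Rps15a-ps6* reached 0.146 TPM in apoC-III ASO replicate 2 and was under 1e-06 TPM in replicate 3. *Rpl21-ps7*, the copy at 0 under the apoC-III ASO, reached 0.153 TPM in control ASO replicate 3, and its other value was far under 1e-06 TPM.

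*Rps10-ps2* was the only copy above 0 in all 5 apoC-III ASO livers and at 0 in all 4 controls. Of the 26067 genes ever above 0, 11 (0.0422%) had that pattern. It was at 4.04, 1.6, 1.44, 3.06 and 1.87 TPM, a mean of 2.40 ± 1.11 (SD, n = 5). It was also the only copy whose groups did not overlap with the apoC-III ASO livers higher, as they did in 70 genes (0.269%). No copy had all apoC-III ASO livers below all controls, as 21 genes had (0.0806%). On log2(TPM + 1) the difference was 1.71 (SE 0.34). Its size depends on the pseudocount and is no fold change, since the control livers are listed at 0. The limma-trend fit over the 4936 genes with a mean of at least 1 TPM called 1 of the 16 copies in it higher, this copy, and 0.101% of all genes in it. The copy passed that minimum only through the group in which it is high, and it was picked for the same values, so the call supports nothing and no p is given. Without apoC-III ASO replicate 1 its mean fell under the minimum.

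The parent and the other copies gave the values another setting. *Rps10* was at 3.25, 3.58, 1.64, 3.76 and 1.83 TPM in apoC-III ASO livers and at 6.56, 8.98, 4.25 and 0.638 TPM in controls. In replicates 1 to 3 of the control group the parent was above every apoC-III ASO liver, and in replicate 4 it was below. After division by the median-of-ratios factors, *Rps10* was at 2.05, 2.60, 1.57, 3.27 and 2.85 against 3.75, 6.45, 3.59 and 2.95, so that control ASO replicate 4 then lay above 4 of the 5 apoC-III ASO livers. *Rps10-ps1* was above 0 in apoC-III ASO replicates 3 and 5 (1.92 and 0.773 TPM) and in control ASO replicate 4 (0.490 TPM). *Rps10-ps3* and *Rps10-ps4*, nearly all of whose words are unique, were at 0 in every liver. Summed over parent and 4 copies, the family was at 7.29, 5.18, 5.0, 6.82 and 4.48 TPM against 6.56, 8.98, 4.25 and 1.13 TPM, and the groups overlapped. *Rps10-ps2* held 28.9% to 55.4% of that sum in the apoC-III ASO livers and 0% in the controls, where *Rps10* held 100% in replicates 1 to 3 and 56.5% in replicate 4. After division by the median-of-ratios factors, the family sums were 3.76 to 6.97 and 3.59 to 6.45. How the reads of the family were divided among its genes was not tested, since the table holds no reads.

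**Figure D4:**
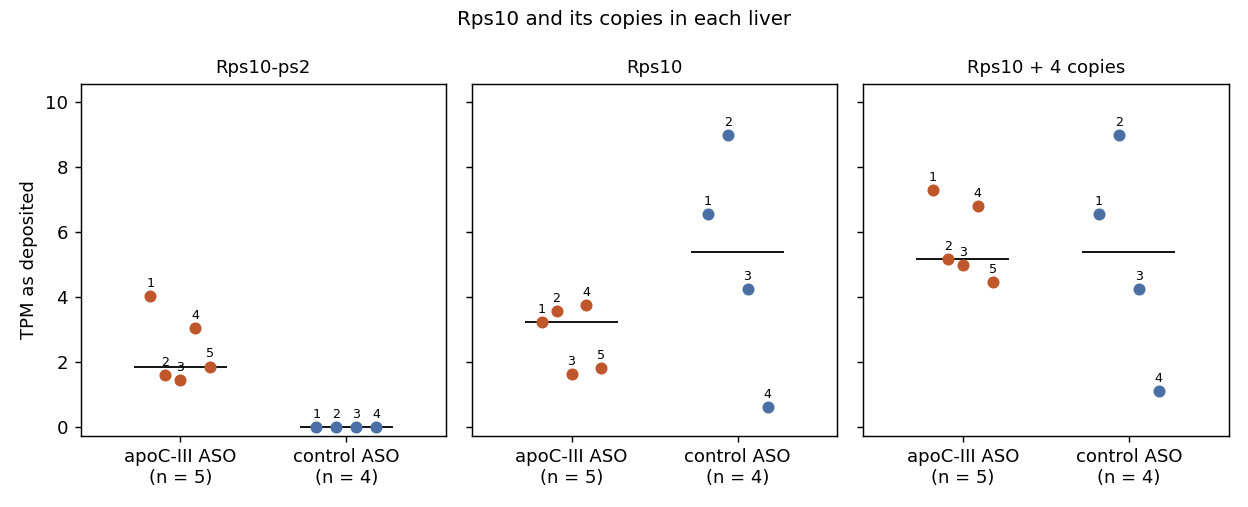
TPM as deposited of *Rps10-ps2*, of *Rps10* and of the sum of *Rps10* and its 4 copies in each liver (points, numbered by replicate; lines mark group medians; orange, apoC-III ASO, n = 5; blue, control ASO, n = 4). *Rps10-ps2* is at 0 in every control liver and at 1.44 TPM or more in every apoC-III ASO liver, while the family sums overlap.

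*Rpl3-ps1* was the other copy called by that fit, in which its mean was lower under the apoC-III ASO. It was at 0, 0, 1.49, 0 and 1.58 TPM under the apoC-III ASO and at 4.10, 4.19, 2.92 and 1.38 TPM under the control ASO. The lowest control lay below 2 apoC-III ASO livers, so the groups overlapped. On log2(TPM + 1) the difference was -1.45 (SE 0.37), and 0.122% of the genes in the fit were called lower. The copy passed the minimum through the control group (mean 3.15 TPM, against 0.614 TPM under the apoC-III ASO), so the call supports nothing and no p is given. It was made without apoC-III ASO replicate 3 or 5, and lost without any other liver and after median-of-ratios scaling.

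*Rpl3-ps2* was above 1 TPM where *Rpl3-ps1* was at 0 in apoC-III ASO replicates 1 and 2 (2.14 and 1.45 TPM), and at or near 0 in the other 7 livers. *Rpl3* was at 2.60, 2.81, 0.954, 3.08 and 0.718 TPM, and at 2.99, 2.37, 1.02 and 0.188 TPM. In apoC-III ASO replicate 4 it held the whole of the family sum, and in control ASO replicate 4 it held 12.0%, with 88.0% in *Rpl3-ps1*. The sum over *Rpl3* and its 2 copies was 4.73, 4.26, 2.45, 3.08 and 2.29 TPM against 7.09, 6.56, 3.96 and 1.56 TPM, which overlap. After median-of-ratios scaling the sums were 2.34 to 3.57 and 3.35 to 7.25, which also overlap. A further processed pseudogene outside the symbol rule, *Gm5879*, shares 74.7% of the words of *Rpl3-ps1* and had a mean of 0.724 TPM.

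**Figure D5:**
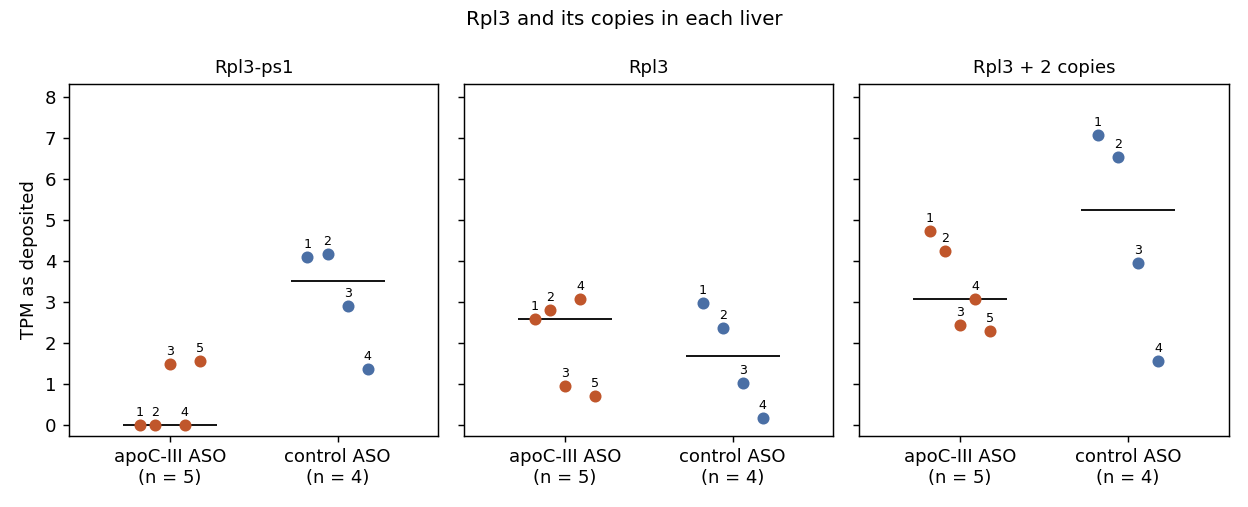
TPM as deposited of *Rpl3-ps1*, of *Rpl3* and of the sum of *Rpl3* and its 2 copies in each liver (points, numbered by replicate; lines mark group medians; orange, apoC-III ASO, n = 5; blue, control ASO, n = 4). *Rpl3-ps1* is at 0 in 3 apoC-III ASO livers and at 1.38 TPM or more in each control liver, and the sums overlap.

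The other 14 copies tested did not pass the test. Over the 16 tested copies, 8 had a higher and 8 a lower value under the apoC-III ASO. Their median difference was 0.02 on log2(TPM + 1), against 0.11 over all 4936 genes. By limma-trend 3 of the 16, both called copies among them, had an unadjusted p under 0.05, against 99 of the 4936 genes. These 16 passed a minimum on the mean of all livers, some only through the group in which they are high, so these counts support nothing about the 276. Among the largest increases after *Rps10-ps2* were *Rpl10-ps3* (0.53), *Rps19-ps6* (0.46) and *Rpl36a-ps3* (0.14), and the largest decreases after *Rpl3-ps1* were *Rpl36a-ps1* (-0.94), *Rpl17-ps8* (-0.58), *Rps23-ps2* (-0.30) and *Rps23-ps1* (-0.26), all on that scale. The sign of *Rpl36a-ps3* depended on the scale. Its mean was lower under the apoC-III ASO (4.30 against 4.78 TPM), and its log2 difference was -0.09 after median-of-ratios scaling. *Rps19-ps6*, in an intron of *Tecpr2* on the same strand, was at 3.97, 0.897, 0.766, 3.96 and 0.841 TPM and at 1.21, 3.09, 0.339 and 0.277 TPM. *Rps6-ps3*, a copy of the gene for a small-subunit protein that is phosphorylated after growth signals, ran from 0.0407 to 2.99 TPM and from 0.0294 to 4.09 TPM. *Rpsa-ps2* was the steadiest of these as deposited under the apoC-III ASO, at 1.20 to 2.09 TPM, and ran from 0 to 3.11 TPM in controls. In each of these 3 the groups overlapped.

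The cytosolic ribosomal protein genes themselves showed no called change. Of the 79 listed, 77 were tested, 49 were higher and 28 lower under the apoC-III ASO, with a median of 0.05 on log2(TPM + 1). By limma-trend 0 of the 77 were called and 0 had an unadjusted p under 0.05, against 99 of all 4936 genes tested. The largest differences in the list were those of *Rpl27* (0.70), *Rps28* (0.69) and *Rps2* (0.62) upwards and of *Rpl34* (-0.70), *Rps7* (-0.65) and *Rps19* (-0.59) downwards, on the same scale. Their direction as a list depended on scaling. After median-of-ratios scaling 18 of 76 were higher and 58 lower, with a median of -0.17. By limma-trend 0 of the 76 were called and 8 had an unadjusted p under 0.05, against 256 of all 4487 genes tested. The copies went the same way, with 7 of 19 higher and a median of -0.18, while the median of all genes moved from 0.11 to -0.01. Control ASO replicate 4, with the factor of 0.216, stood apart on this scale too. Its scaled sum over the parent genes was 475, against 205 to 287 in the other controls and 169 to 321 in apoC-III ASO livers. How far that liver accounts for the direction of the lists was not tested.

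The 16 tested copies varied more, by median, between livers of the same group than the tested parents did. After division by the median-of-ratios factors, the coefficient of variation of the 16 tested copies had a median of 76.9% in apoC-III ASO livers and 76.5% in control livers. It was 33.0% and 45.2% for the 58 tested parents, and 28.5% and 28.6% for all genes tested. *Rps10-ps2*, at 0 in every control liver, has no coefficient of variation in that group. The tested copies also had lower means (median 1.75 TPM) than the parents (median 3.62 TPM over all 60). These copies passed a minimum on the mean of all livers, some only through the group in which they are high. How far level or this selection accounts for their wider spread was not tested, and the other copies were not compared.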

How the data were processed

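Liver RNA of 9 mice was analysed from a table of TPM per gene. The authors deposited these TPM values, and their processing notes name kallisto 0.43.1 and GRCm38. STAR, featureCounts and DESeq2 are named in the methods of the paper, and those counts were not used here. TPM keeps no depth, so no counting error could be given. Copies were found by symbol and matched by Ensembl identifier to GENCODE M21. Words of 31 bases, on either strand, were compared over all its transcripts, and each copy was aligned locally (Biopython 1.88; match 2, mismatch -3, gap opening -5, extension -2) to the protein-coding transcripts of its parent. limma 3.58.1 (R 4.3.3; lmFit, eBayes with trend) compared the ASO groups on log2(TPM + 1) in genes with a mean of at least 1 TPM, calling an adjusted p under 0.05 (Benjamini-Hochberg) with a change over 1.5-fold. The step was tested on simulated data. Median-of-ratios factors used genes with a mean of at least 1 TPM and above 0 in all livers.

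The rule for named genes gave 22 copies (those called, the highest means, ratios to parent and changes, and those at 0 in 1 group but above 0 in 2 or more livers of the other) with their parents, and 1 of them is not reported here. *Rps16-ps2*, *Rpl29-ps5*, *Rps18-ps3*, *Rpl19-ps1*, *Rpl21-ps11* and the families without detection were chosen after their values were seen. Members, lists and tests were chosen with earlier results of these data known. The same-number livers of the groups correlated at 0.02 to 0.13 in their deviations, so the numbers were not taken to pair livers. Python 3.11.15 and pandas 2.3.3 were used for the other steps. All value columns belonged to a labelled liver.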

Additional observations from a re-analysis of the deposited data

Results flagged for a closer look

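Of 95 sets of 4 or 5 values of a quantity in a group, 5 held a liver far from the others by Dixon's ratio, and chance alone would give about 1 in 20. Control ASO replicate 1 had 65 copies above 0, where the other controls had 44 to 47; 23 of its values were under 1e-06 TPM. *Rpl34-ps1* was at 1.47 TPM in apoC-III ASO replicate 4 and at 0 to 0.0138 TPM in the other livers of that group. *Rpl39-ps* was at 1.80 TPM in the same liver, against 0 to 0.523 TPM. In apoC-III ASO replicate 1 the parent *Rpl32* was at 6.36 TPM, against 2.76 to 3.36 TPM, and the parent *Rps23* was at 2.78 TPM, against 1.01 to 1.39 TPM. No cause was tested for any of them.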

How the results depend on the processing

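TPM without reads limits these values: no counting error can be given, near-identical genes cannot be told apart, and 4 against 5 livers leave wide spreads. The number of copies called higher was 1 as reported and 0 with no filter on low values, with a mean minimum of 5 TPM, and with median-of-ratios scaling without control ASO replicate 4 (chosen after seeing the data). The number called lower was 1 as reported and 0 with pseudocounts of 0.1 and 0.5, with no filter, with minimums of 0.1 and 5 TPM, with median-of-ratios scaling, with that scaling without control ASO replicate 4, and with nuclear protein-coding sum scaling. With each liver left out in turn, both numbers ranged from 0 to 1. At a minimum of 5 TPM neither copy was tested, by construction. Without apoC-III ASO replicate 1, *Rps10-ps2* was not tested either, since its mean fell under the minimum of 1 TPM. For the other losses the cause was not tested. The log2 difference of *Rps10-ps2* ranged from 1.61 to 5.71 and that of *Rpl3-ps1* from -3.75 to -1.23 over the alternatives in which they were fitted, with no change of sign. The far ends, 5.71 and -3.75, came with nuclear protein-coding sum scaling. Its values are larger against the pseudocount of 1, and 14892 genes passed the minimum, against 4936 as reported. The sizes are therefore not on a common scale.

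With a replicate block for the numbers shared by the groups, which leaves out apoC-III ASO replicate 5, 1 copy was called higher and 1 lower, as without the block. Not every liver correlated best with its own number, and the samples share only a number.

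Copies at 0 in the controls alone numbered 25, or 7 with at least 2 livers above 0 and 1 with every liver above 0, and 19 to 37 with a liver left out. Those at 0 in the apoC-III ASO livers alone numbered 18, or 1 and 0 under the same conditions, and 9 to 26 with a liver left out, lowest without control ASO replicate 4. The median number of copies above 0 per liver was 47, or 18 from 1 TPM upwards. The summed TPM of copies was a median of 24.7% of that of their parents, 18.5% without *Rpl19-ps11*, and 18.6% of that of all listed ribosomal protein genes. The decrease of *Apoc3* kept its direction in all 10 alternatives.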

Other observations

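*Rpl21-ps11* came close to the pattern of *Rps10-ps2* by the sign of its values alone. It was above 0 in 4 apoC-III ASO livers and 1 control liver, but its values were 4.47, 1.16e-08, 0.0610, 2.23e-86 and 0 TPM, and 3.06e-146 TPM in control ASO replicate 1. There were 10 copies with no other values than such remainders under 1e-06 TPM. *Rpl10-ps1*, whose sequence is identical to that of *Rpl10* over its whole length, was at 5.34 TPM in control ASO replicate 2 and at or near 0 in the other 8 livers.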
